A study of Mus musculus with 6 samples.

Results

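Complexes II and III of the respiratory chain, cytochrome c and ATP synthase are described here through 41 nuclear genes that encode their subunits and assembly factors. The genes were chosen by name, under the older mouse symbols for ATP synthase, and all 41 were found among the 23886 Ensembl gene identifiers listed. They comprise 7 genes of complex II, 16 of complex III with cytochrome c, and 18 of ATP synthase. Poly(A) RNA was sequenced from AML12 cells, a hepatocyte line from mouse liver, in 2 groups of 3 libraries. The first group had been treated with a static magnetic field, which stays constant over time (libraries SMF 1, 2 and 3), and the second was untreated (libraries Control 2, 3 and 4), with cell line, wild-type background and library preparation shared by both. The strength and length of exposure were not stated, and the series title names cellular respiration as a process of interest. The labels do not say whether the 3 libraries of a group came from separate cultures, so p-values measure only the spread between these libraries, which may be technical.

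The inner mitochondrial membrane passes electrons along a chain of protein complexes and uses the energy to pump protons. Complex II (succinate dehydrogenase) oxidises succinate in the citric acid cycle and hands the electrons to ubiquinone without pumping protons. Complex III takes them from reduced ubiquinone, pumps protons and reduces cytochrome c, the small soluble carrier that feeds cytochrome c oxidase. ATP synthase (complex V) lets protons back through a ring of c subunits, and the rotation drives ATP formation in its F1 head. Hepatocytes are rich in mitochondria and rely on this route for energy. All subunits of complex II are encoded in the nucleus, whereas 1 subunit of complex III (mt-Cytb) and a few of ATP synthase are encoded in mitochondrial DNA.

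The library totals behind the deposited values were 15514530 to 17969397 reads in SMF and 16601816 to 18200516 reads in Control. The label was checked against markers. Krt8 averaged 2018 FPKM in SMF and 1921 FPKM in Control, Hnf4a 91.4 FPKM in SMF and 91.6 FPKM in Control, and Alb 30.4 FPKM in SMF and 29.2 FPKM in Control, whereas the urea cycle genes Cps1 and Ass1 were at or near 0 in every library. The hepatocyte label was thus borne by part of its 10 markers, and 4 of 5 bile duct markers were also present, with Krt19 at 1110 FPKM in SMF and 1063 FPKM in Control. Of the markers of other cell types, Col1a2, Col3a1, Ptprc, Pecam1 and Stab2 were at or near 0 in both groups, whereas Cd68 averaged 2.26 FPKM in SMF and 2.57 FPKM in Control, Col1a1 1.07 FPKM in SMF and 0.975 FPKM in Control, and Des 0.575 FPKM in SMF and 0.682 FPKM in Control, each with overlapping groups. Epcam was the single bile duct marker at or near 0. In bulk RNA, fewer cells of a type and less RNA per cell cannot be told apart.

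Levels are given in FPKM, fragments scaled to exon length and to the library total. For nearly all genes that length fits the sum of all annotated exons. A gene whose mRNA is shorter than this sum is understated, so levels of different genes compare only roughly. Among the 40 members that passed the expression filter (at least 1 FPKM in at least 3 of 6 libraries), the mean over all libraries ranged from 2.1 FPKM for Atp5o to 460 FPKM for Atp5a1. The median over members was 54.0 FPKM, beside 8.74 FPKM over all 11114 genes tested. The most abundant were the catalytic F1 pair of ATP synthase, Atp5a1 (subunit alpha) and Atp5b (subunit beta), followed by the c subunit gene Atp5g3 and the small complex III subunit Uqcr10. Lyrm7, which helps insert the iron-sulfur protein into complex III, held only 10 to 21 reads per library and was not tested. FPKM values within a complex were uneven. Atp5e (subunit epsilon of F1) averaged 8.31 FPKM and Atp5o 2.1 FPKM, although each F1 head carries their products beside alpha and beta. The value of Atp5o is uncertain, because 47.9% of its exon bases overlap other annotated genes, on both strands. Among these is a further locus on the same strand that is also named Atp5o. The listed Atp5o held 64 to 79 reads per library.

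**Figure D1:**
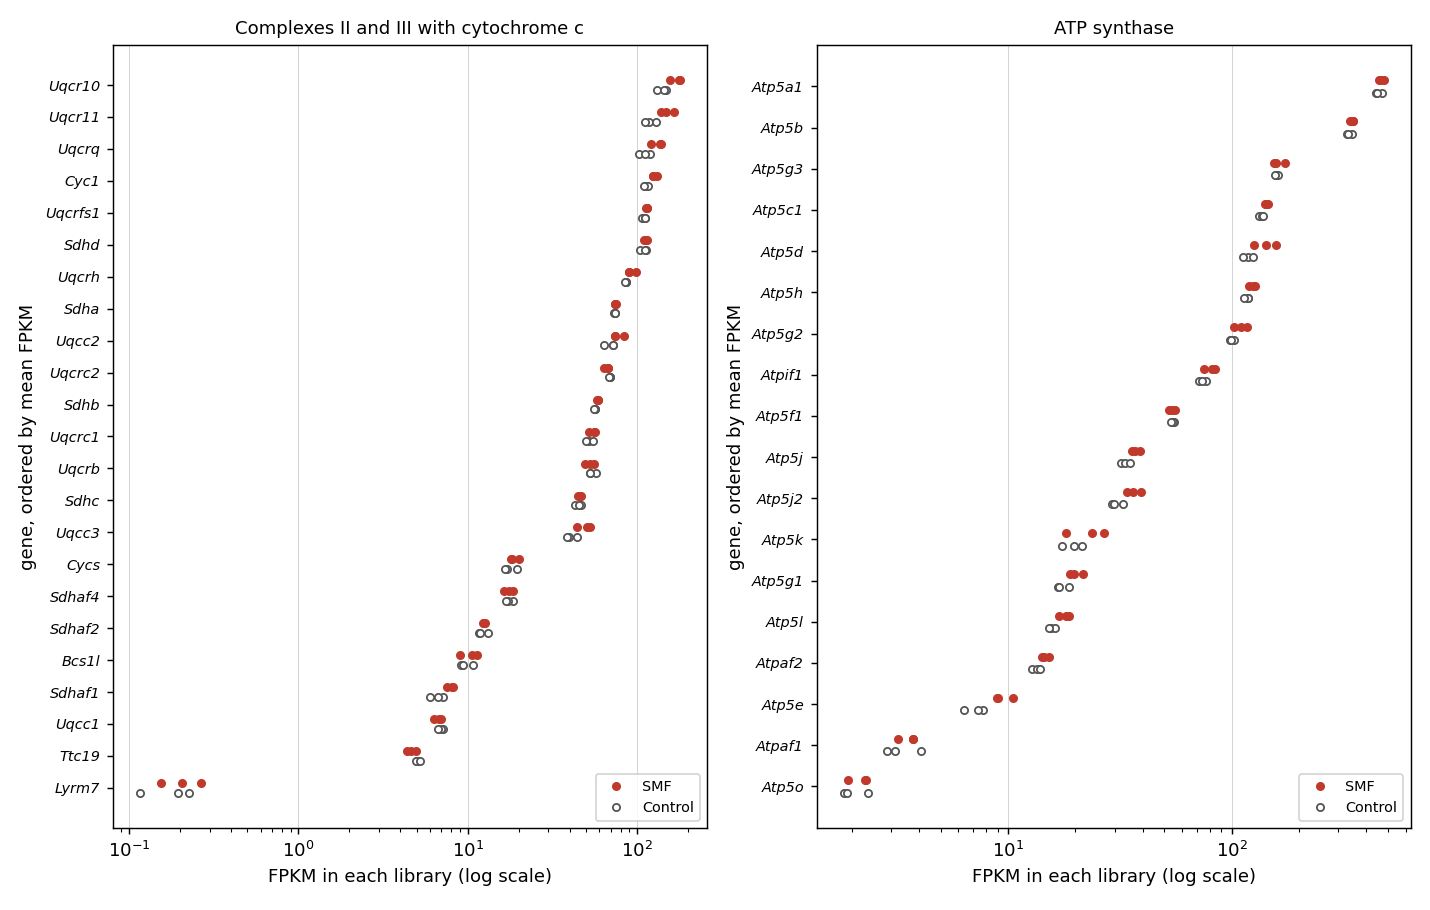
FPKM (log scale) of each member in each library, genes ordered by mean, with filled points for SMF and open points for Control. Atp5a1 and Atp5b lie highest, Lyrm7 lies below 1 FPKM, and the points of the groups lie close together beside the distance between genes.

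The promoters of many respiratory chain genes are known to carry sites for NRF1 and for the ETS factor GABPA (also called NRF2), both regulators of nuclear genes for mitochondria. RefSeq windows on GRCm38.p6, from 250 bases before to 50 after the annotated start, were found for 35 members and not for Sdhc, Uqcrc2, Uqcrb, Uqcrq, Cyc1 and Atp5a1. Both strands were searched, and each motif was counted on its own. The palindromic NRF1 consensus, with any base allowed at a single inner position, occurred in 12 of 35 windows (34.3%), beside 7.17% of 17492 protein-coding genes. The strict form, with A at that position and shown in capitals in the Atp5g2 and Atp5k windows, is contained in it and occurred in Uqcrc1, Atp5g2 and Atp5k, 8.57% of the windows beside 1.47% of all. The ETS letters CCGGAAG occurred in 12 windows (34.3%), beside 12.9% of all. The YY1 letters AAGATGG occurred in 5 (14.3%, beside 7.18%) and the SP1 letters GGGCGG in 18 (51.4%, beside 49.2%). The windows of Sdha and of the genes with the strict form show the NRF1 consensus, and those of Atp5l and Uqcr11 show the ETS letters. Both genes are among the members called by limma-voom, a test described below. Of the other called members with a window, Atp5e holds the ETS letters, whereas Uqcr10, Atp5d and Atp5j2 do not. Whether the ETS letters go with a difference between the groups was not tested. Capitals mark the matches, on either strand, of the 1 motif shown for each window, and matches of other motifs stay in lower case. The Atp5k window, for example, also holds the ETS letters. Each sequence runs 5′ to 3′ along its gene.
Sdha, chr13:74350191-74350490, minus strand: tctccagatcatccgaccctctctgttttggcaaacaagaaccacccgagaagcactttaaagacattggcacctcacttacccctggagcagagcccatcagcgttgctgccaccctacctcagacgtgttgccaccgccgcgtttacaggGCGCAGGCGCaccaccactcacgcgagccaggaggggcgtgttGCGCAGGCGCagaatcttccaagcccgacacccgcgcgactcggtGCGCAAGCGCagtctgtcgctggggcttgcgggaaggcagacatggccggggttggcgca
Uqcrc1, chr9:108936398-108936697, plus strand: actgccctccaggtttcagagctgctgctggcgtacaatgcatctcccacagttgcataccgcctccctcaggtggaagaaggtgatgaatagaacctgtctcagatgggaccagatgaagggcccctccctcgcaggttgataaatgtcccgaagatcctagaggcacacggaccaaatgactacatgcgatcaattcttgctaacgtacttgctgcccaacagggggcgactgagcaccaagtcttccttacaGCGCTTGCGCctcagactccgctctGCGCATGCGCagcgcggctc
Atp5g2, chr15:102670998-102671297, minus strand: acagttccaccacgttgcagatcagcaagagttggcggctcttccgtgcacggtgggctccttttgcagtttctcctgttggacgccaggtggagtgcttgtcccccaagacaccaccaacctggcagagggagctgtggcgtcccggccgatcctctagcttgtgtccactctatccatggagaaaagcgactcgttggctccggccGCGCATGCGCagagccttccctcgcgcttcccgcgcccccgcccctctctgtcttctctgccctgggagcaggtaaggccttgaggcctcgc
Atp5k, chr5:108434350-108434649, minus strand: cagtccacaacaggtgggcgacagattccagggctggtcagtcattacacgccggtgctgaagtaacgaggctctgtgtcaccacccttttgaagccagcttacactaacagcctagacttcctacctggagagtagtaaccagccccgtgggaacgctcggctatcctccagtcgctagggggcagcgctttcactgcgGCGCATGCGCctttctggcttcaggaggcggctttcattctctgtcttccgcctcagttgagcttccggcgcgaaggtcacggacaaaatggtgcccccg
Atp5l, chr9:44920693-44920992, minus strand: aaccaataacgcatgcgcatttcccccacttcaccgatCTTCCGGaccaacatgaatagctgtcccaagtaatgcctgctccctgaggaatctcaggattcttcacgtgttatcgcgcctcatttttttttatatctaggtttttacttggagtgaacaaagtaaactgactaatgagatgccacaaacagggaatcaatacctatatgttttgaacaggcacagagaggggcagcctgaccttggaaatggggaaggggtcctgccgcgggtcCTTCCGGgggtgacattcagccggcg
Uqcr11, chr10:80406772-80407071, minus strand: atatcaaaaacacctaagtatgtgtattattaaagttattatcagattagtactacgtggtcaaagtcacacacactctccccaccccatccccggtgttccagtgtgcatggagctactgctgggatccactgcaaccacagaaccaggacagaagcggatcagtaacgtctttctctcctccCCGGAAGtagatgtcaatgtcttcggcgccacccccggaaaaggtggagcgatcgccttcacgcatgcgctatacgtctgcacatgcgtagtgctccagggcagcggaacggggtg

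SMF and Control libraries were then compared gene by gene with limma on log2(FPKM + 1), and p-values were adjusted by the Benjamini-Hochberg method over all 11114 genes tested. At an adjusted p of 0.05, limma called 0 of 40 members, and 0% of all genes in each direction. The smallest adjusted p among members was 0.157, for Atp5e. At an unadjusted p under 0.05, limma found 18 members with higher values in SMF, where 9.41% of all genes did, and 0 members with lower values, where 8.57% of all genes did. The log2 fold (SMF over Control) was above 0 in 35 of 40 members, beside 46.7% of all genes. Its median over members was 0.082, with quartiles of 0.036 and 0.19, beside -0.0095 over all genes.

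limma-voom on the read numbers recovered from the FPKM values, which weights genes by their depth, called 8 members higher in SMF and 0 lower. Across all genes it called 2.18% higher and 2.41% lower. The 8 were 4 subunits of complex III (Uqcrq, Uqcr10, Uqcr11 and Cyc1) and 4 subunits of ATP synthase (Atp5d, Atp5e, Atp5j2 and Atp5l), and no assembly factor was among them. These calls changed when single libraries were left out. Without SMF 1 or without Control 4, limma-voom called 0 members, without SMF 3 only Uqcr11, and without Control 2 only Uqcr11 and Atp5d. Without SMF 2 it called 13 members, all 8 included, and without Control 3 it called 9, of which 7 were among the 8. Calls over all 11114 genes moved too, with 59 without SMF 1, 1465 without SMF 2 and 77 without SMF 3. They were 229 without Control 2, 450 without Control 3 and 8 without Control 4.

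**Figure D2:**
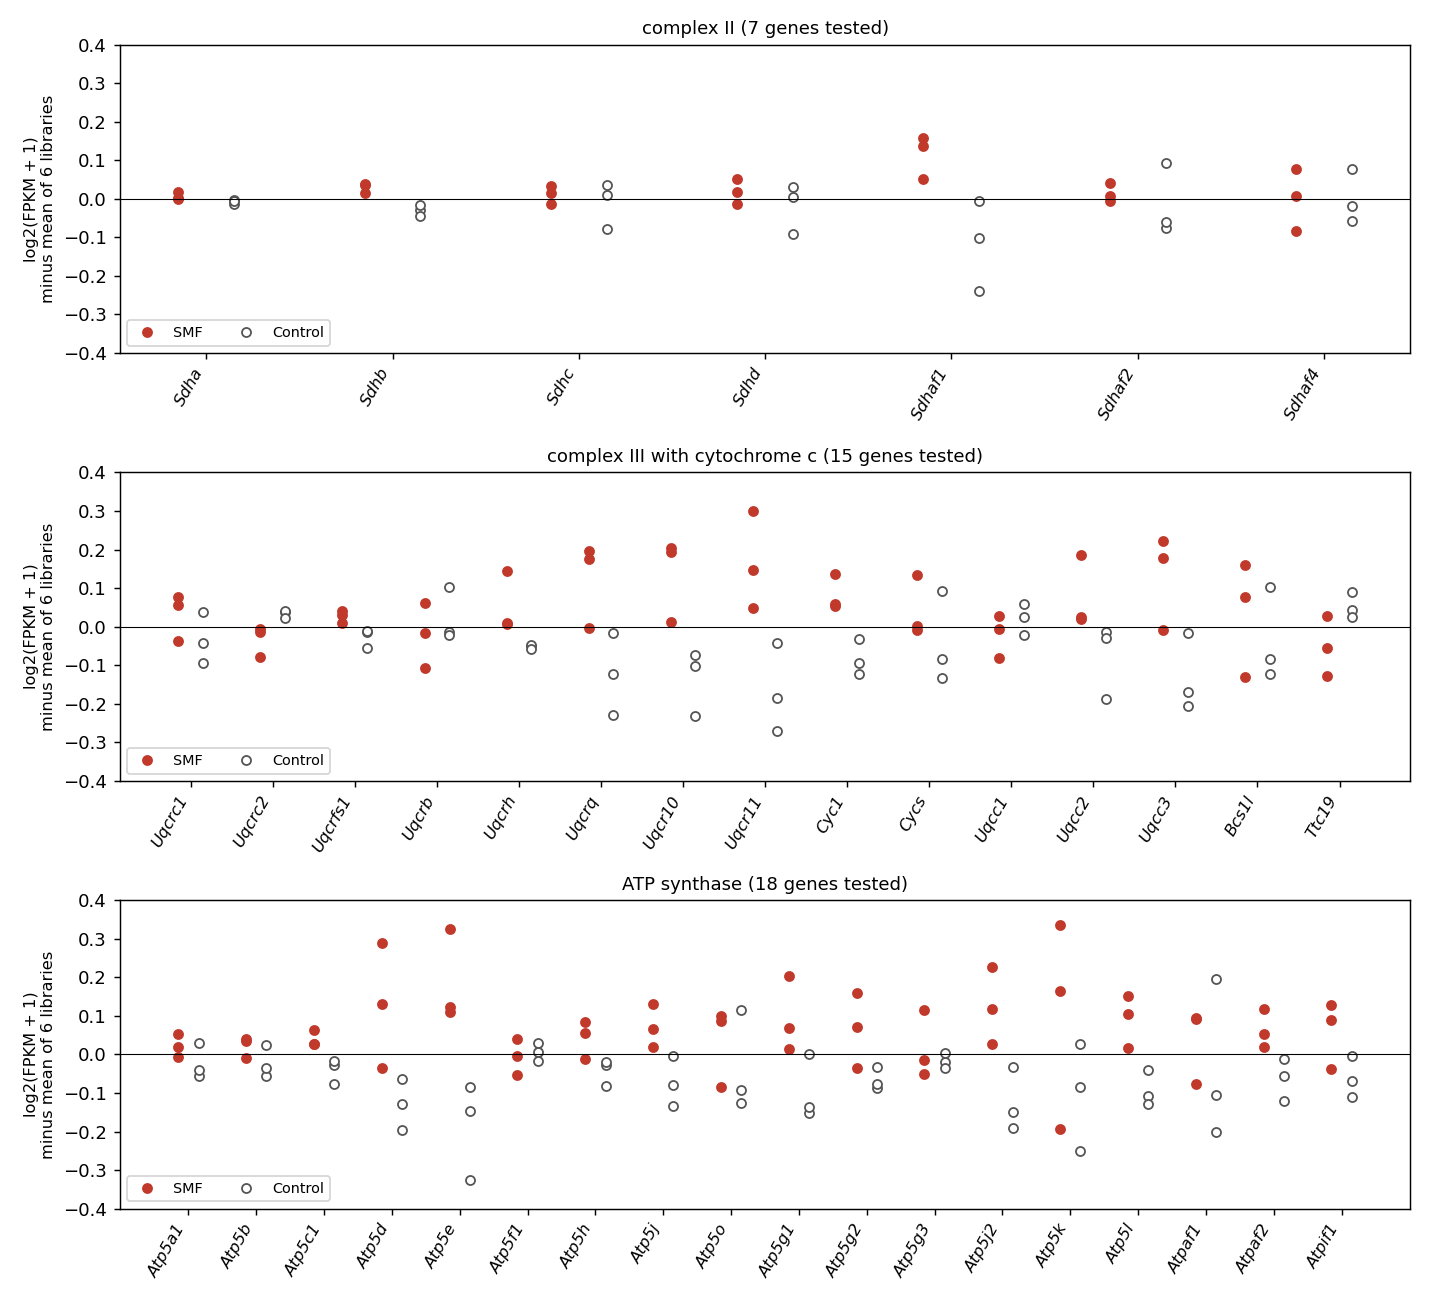
log2(FPKM + 1) of each tested member in each library, minus its mean over the 6 libraries, by complex, with filled points for SMF and open points for Control. Uqcrq, Uqcr10, Uqcr11, Atp5d and Atp5e have every SMF point above every Control point, whereas the complex II subunits stay close to 0.

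In complex II, 0 of 7 members passed either test, and the log2 folds were above 0 in all 7 with a median of 0.028. Sdha, the flavoprotein that binds succinate (ENSMUSG00000021577), had 74.1, 75.1 and 74.1 FPKM in SMF 1, 2 and 3, against 74.0, 73.4 and 73.8 FPKM in Control 2, 3 and 4. The SMF libraries lay just above the Control libraries, by less than 1 FPKM at the closest pair, and the log2 fold was 0.014 with a standard error of 0.031 and an adjusted p of 0.839 by limma. Sdhb, the iron-sulfur subunit, had 57.9, 58.8 and 58.8 FPKM in SMF, against 56.1, 56.7 and 55.5 FPKM in Control. Here too the groups did not overlap, and the log2 fold was 0.059 ± 0.032 (standard error) with an adjusted p of 0.365 by limma.

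Sdhc and Sdhd anchor complex II in the membrane and hold the ubiquinone site. Sdhc had 46.5, 44.9 and 45.9 FPKM in SMF, against 42.9, 46.6 and 45.7 FPKM in Control. Sdhd had 112, 115 and 109.8 FPKM in SMF, against 104, 113 and 111 FPKM in Control. Both genes overlapped between the groups, and Control 2 was the lowest library for each. Their adjusted p-values by limma were 0.797 for Sdhc and 0.654 for Sdhd.

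Of the complex II assembly factors, Sdhaf1, which supports iron-sulfur insertion into the Sdhb protein, had the largest fold and the lowest level. It had 8.18, 7.53 and 8.05 FPKM in SMF, against 5.98, 7.19 and 6.67 FPKM in Control. Every SMF library lay above every Control library, and the log2 fold of 0.23 ± 0.070 (standard error) had an unadjusted p of 0.0106 and an adjusted p of 0.184 by limma. Of its exon bases, 69.6% overlap E130208F15Rik on the opposite strand, which had 1.64, 2.2 and 1.57 FPKM in SMF against 1.29, 1.49 and 1.25 FPKM in Control. No strand marking is stated for the kit, so reads of the overlap cannot be assigned. Sdhaf4, a factor for the assembly of the Sdha and Sdhb proteins, had 17.6, 18.5 and 16.4 FPKM in SMF, against 18.5, 17.2 and 16.7 FPKM in Control. The groups overlapped throughout, and the adjusted p was 0.997 by limma. Sdhaf2, which aids flavin attachment to the Sdha protein, had an adjusted p of 0.813 by limma, with overlapping groups.

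In complex III with cytochrome c, limma called 0 of 15 tested members at the adjusted threshold, and 7 had an unadjusted p under 0.05. The log2 folds were above 0 in 11 of 15, with a median of 0.084. The core proteins Uqcrc1 and Uqcrc2 lie on the matrix side. Uqcrc1 had 55.8, 52.2 and 56.6 FPKM in SMF, against 52.0, 55.1 and 50.2 FPKM in Control, with overlapping groups. Uqcrc2 had 64.0, 67.3 and 67.0 FPKM in SMF, against 69.5, 69.6 and 68.7 FPKM in Control. It was the single member with every SMF library below every Control library, which held for 12.7% of all genes, and its log2 fold was -0.067 ± 0.035 (standard error) with an adjusted p of 0.353 by limma. Of its exon bases, 19.7% overlap Pdzd9 on the opposite strand, a gene listed at no more than 6 reads in any library.

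The Rieske iron-sulfur protein and cytochrome c1 carry electrons from ubiquinol towards cytochrome c. Uqcrfs1, the Rieske protein gene, had 114, 112 and 115 FPKM in SMF, against 107, 111 and 111 FPKM in Control. The groups did not overlap, with a log2 fold of 0.053 and an adjusted p of 0.409 by limma. Cyc1, the cytochrome c1 gene (ENSMUSG00000022551), had 131, 124 and 124 FPKM in SMF, against 111, 117 and 109 FPKM in Control. Every SMF library lay above every Control library, with means of 126 ± 4.13 FPKM in SMF and 112 ± 3.75 FPKM in Control (SD, n = 3 each). The log2 fold was 0.17 ± 0.040 (standard error), with an adjusted p of 0.161 by limma and of 0.0274 by limma-voom.

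Of the small subunits, Uqcrq and Uqcr10 are single-span membrane proteins near cytochrome b and cytochrome c1, and Uqcr11 is a further very small one. Uqcrq (ENSMUSG00000044894) had 139, 121 and 137 FPKM in SMF, against 103, 119.6 and 111 FPKM in Control. SMF 2 and Control 3 were nearly level and the other SMF libraries were clearly above all Control libraries. The log2 fold was 0.25 ± 0.068 (standard error), with an adjusted p of 0.169 by limma and of 0.0127 by limma-voom.

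Uqcr10 (ENSMUSG00000059534) had 179, 156 and 178 FPKM in SMF, against 132, 147 and 144 FPKM in Control. Again SMF 2 was the lowest SMF library and Control 3 the highest Control library, without overlap. The log2 fold was 0.27 ± 0.063 (standard error), with an adjusted p of 0.158 by limma and of 0.0149 by limma-voom. Uqcr11 (ENSMUSG00000020163), whose window with an ETS match is printed above, had 165, 138 and 148 FPKM in SMF, against 118, 129.9 and 111 FPKM in Control. It showed the same order, and its means of 151 ± 13.5 FPKM in SMF and 119 ± 9.73 FPKM in Control (SD, n = 3 each) were 1.26-fold apart. The log2 fold was 0.33 ± 0.075 (standard error), with an adjusted p of 0.158 by limma and of 0.00741 by limma-voom.

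The other 2 small subunits had smaller folds. Uqcrh, the hinge protein that helps dock cytochrome c, averaged a log2 fold of 0.10 with an unadjusted p of 0.0424 and an adjusted p of 0.262 by limma, without overlap between the groups. Uqcrb, long called the ubiquinone-binding protein, had 49.5, 52.8 and 55.8 FPKM in SMF, against 52.9, 57.5 and 52.6 FPKM in Control, with overlapping groups. Cycs, the cytochrome c gene, had 20.1, 18.3 and 18.1 FPKM in SMF, against 17.2, 19.5 and 16.5 FPKM in Control. The groups overlapped and the adjusted p was 0.54 by limma. Of the 50-base stretches of its exons, 28.5% are shared with other annotated genes, among them Gm10053. The treatment of such reads is not stated, so this value is uncertain. The same holds for the other members in which more than 10% is shared, namely Uqcrb (19.2%), Uqcrc2, Sdhaf1, Atp5g1 (11.6%), Atp5g2 (14.8%), Atp5h (23.8%), Atp5j, Atp5o, Atpaf1 (29.5%) and Atpif1, whereas 17 members share none.

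Among the complex III assembly factors, Uqcc3, which acts in early assembly around cytochrome b, had 50.7, 44.5 and 52.4 FPKM in SMF, against 39.7, 44.2 and 38.6 FPKM in Control. SMF 2 and Control 3 were again the closest pair, and the groups did not overlap. The log2 fold was 0.26 ± 0.072 (standard error), with an adjusted p of 0.169 by limma and of 0.0574 by limma-voom. Its partner Uqcc2 had a log2 fold of 0.15 and an unadjusted p of 0.0373, with an adjusted p of 0.251 by limma. Uqcc1, with which the Uqcc2 protein binds new cytochrome b, had a log2 fold of -0.040 and overlapping groups. Bcs1l, the factor that moves the Rieske protein across the membrane, had a log2 fold of 0.069, also with overlap. Ttc19, which clears Rieske fragments from the assembled complex, had 4.36, 4.63 and 4.96 FPKM in SMF, against 5.02, 4.95 and 5.22 FPKM in Control. It had the lowest log2 fold of all members, -0.10 ± 0.063 (standard error), with an adjusted p of 0.409 by limma and overlap at SMF 3 and Control 3.

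**Figure D3:**
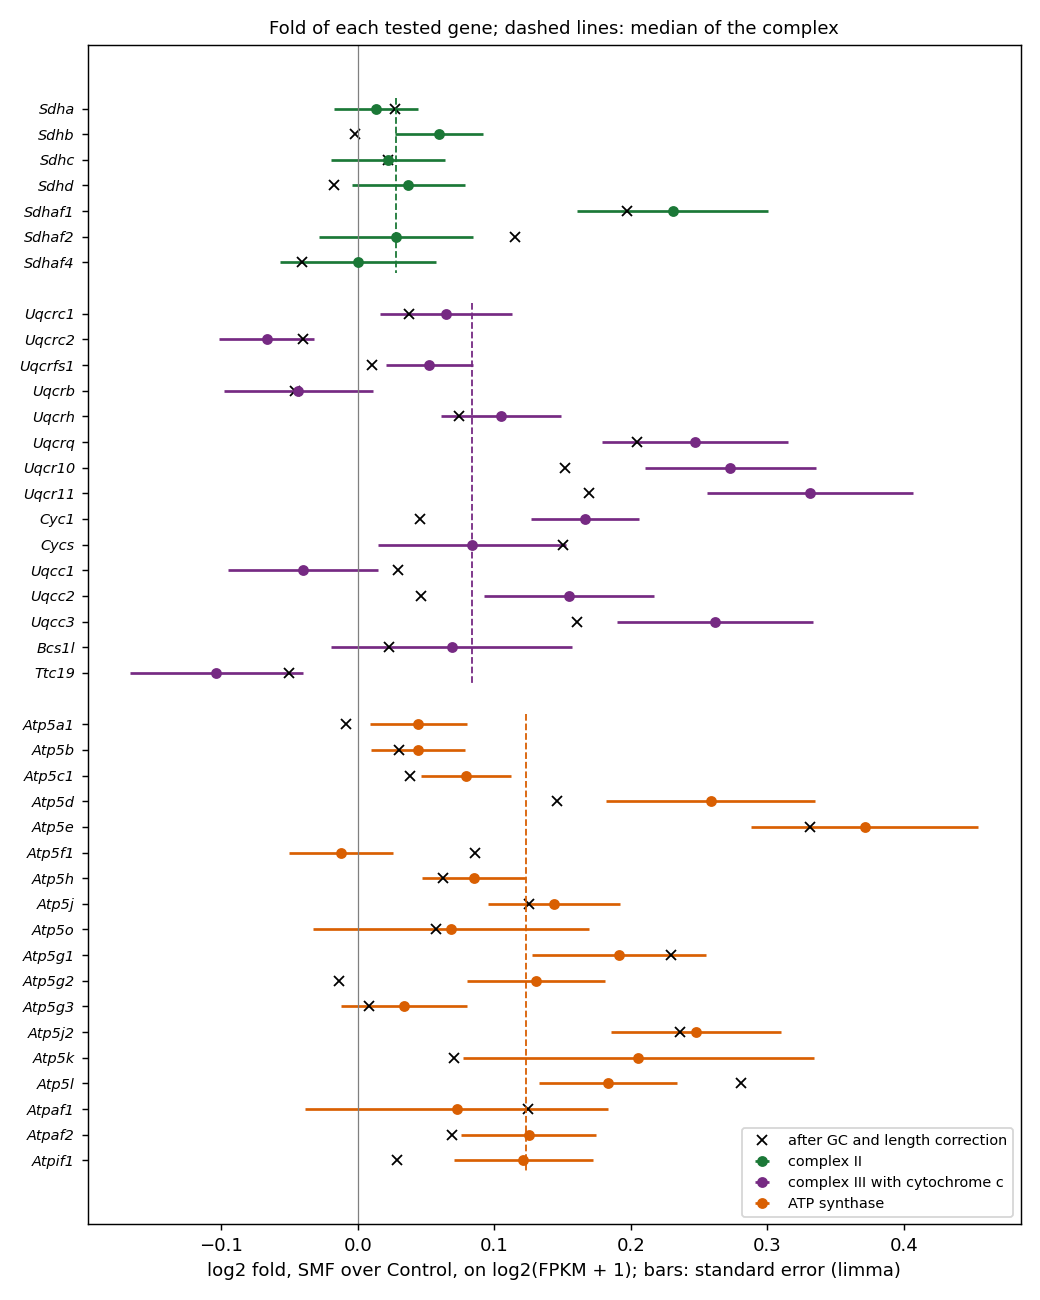
log2 fold (SMF over Control, log2(FPKM + 1) scale) of each tested member with its standard error from limma, coloured by complex, dashed lines at the median of each complex, and crosses for the same fold after correction for GC content and length. Most folds lie between 0 and 0.3, with medians of 0.028 for complex II, 0.084 for complex III with cytochrome c and 0.12 for ATP synthase.

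In ATP synthase, limma called 0 of 18 members at the adjusted threshold, and 10 had an unadjusted p under 0.05. The log2 folds were above 0 in 17 of 18, with a median of 0.12. The catalytic pair showed small differences. Atp5a1 had 478, 458 and 466 FPKM in SMF, against 443, 469 and 448 FPKM in Control. Atp5b had 350.2, 338 and 349 FPKM in SMF, against 328, 346 and 332 FPKM in Control. Both overlapped between the groups through Control 3, with log2 folds of 0.044 each and adjusted p-values by limma of 0.53 for Atp5a1 and 0.522 for Atp5b.

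The central stalk subunits gamma, delta and epsilon turn inside the F1 head. Atp5c1 (gamma) had 142, 142 and 145 FPKM in SMF, against 132, 136 and 137 FPKM in Control, with an adjusted p of 0.261 by limma. Atp5d (delta, ENSMUSG00000003072) had 159, 126 and 142 FPKM in SMF, against 118, 124 and 113 FPKM in Control. SMF 2 was close to Control 3, and SMF 1 stood highest. The log2 fold of Atp5d was 0.26 ± 0.077 (standard error), with an adjusted p of 0.178 by limma and of 0.0137 by limma-voom.

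Atp5e (epsilon, ENSMUSG00000016252) had 10.5, 9.03 and 8.94 FPKM in SMF, against 7.68, 7.32 and 6.35 FPKM in Control, from 190 to 287 reads per library. Every SMF library lay above every Control library, and the means of 9.5 ± 0.897 FPKM in SMF and 7.12 ± 0.688 FPKM in Control (SD, n = 3 each) were 1.33-fold apart. The log2 fold of 0.37 ± 0.083 (standard error) was the highest of all members, with an adjusted p of 0.157 by limma and of 0.0459 by limma-voom.

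The peripheral stalk holds the F1 head still against the membrane. Atp5f1 (subunit b) had 52.3, 54.1 and 55.9 FPKM in SMF, against 55.5, 54.5 and 53.7 FPKM in Control. It was the single ATP synthase member with a log2 fold below 0 (-0.012, adjusted p of 0.882 by limma), and the groups overlapped. Atp5h (subunit d) had 127, 119 and 125 FPKM in SMF, against 118, 119 and 114 FPKM in Control, barely without overlap, with an adjusted p of 0.287 by limma. Atp5j (F6) had 38.8, 35.8 and 37.0 FPKM in SMF, against 32.1, 33.4 and 35.3 FPKM in Control. The groups of Atp5j did not overlap, and the adjusted p was 0.206 by limma. Of its exon bases, 12.7% overlap Gabpa on the opposite strand. Atp5o (OSCP, the link between stalk and head) had a log2 fold of 0.068 and an adjusted p of 0.742 by limma at its low and uncertain level.

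The c ring is built from a mature protein that 3 genes encode. Atp5g1 had 21.6, 18.9 and 19.6 FPKM in SMF, against 16.7, 18.7 and 16.9 FPKM in Control, and the groups did not overlap. The gene Gm10039, with which Atp5g1 shares exon sequence, had 29.6, 23.5 and 22.1 FPKM in SMF, against 21, 29.7 and 23.3 FPKM in Control, from 143 to 222 reads. By FPKM, Gm10039 lay above Atp5g1 in every library, with overlapping groups, whereas Atp5g1 held far more reads, 1362 to 1732 per library. The part of Gm10039 in the values of Atp5g1 was not tested. Atp5g2, printed above with a strict NRF1 match, had 117, 102 and 109.8 FPKM in SMF, against 98.3, 102 and 99.0 FPKM in Control. Atp5g3 had 174, 159 and 155 FPKM in SMF, against 158, 161 and 156 FPKM in Control. The last 2 overlapped between the groups. Adjusted p-values by limma were 0.204 for Atp5g1, 0.241 for Atp5g2 and 0.718 for Atp5g3. As a share of the FPKM summed over the 3 genes, Atp5g1 made up 6.93%, 6.75% and 6.91% in SMF, against 6.12%, 6.64% and 6.20% in Control. Atp5g2 made up 37.4%, 36.5% and 38.6% in SMF, against 36.0%, 36.3% and 36.4% in Control. Atp5g3 made up 55.6%, 56.8% and 54.5% in SMF, against 57.9%, 57.1% and 57.4% in Control. The order of the genes was the same in every library, and for each gene the shares of the groups did not overlap, with mean differences (SMF minus Control) of 0.545, 1.29 and -1.84 percentage points that were not tested. When shares were taken of reads instead, those of Atp5g1 and Atp5g3 still did not overlap, but Atp5g2 overlapped, with 28.7%, 28.0% and 29.8% in SMF against 27.8%, 27.9% and 28.1% in Control.

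The small membrane subunits f, e and g lie next to the ring and take part in pairing ATP synthases into dimers. Atp5j2 (f, ENSMUSG00000038690) had 39.1, 33.9 and 36.2 FPKM in SMF, against 29.0, 32.5 and 29.9 FPKM in Control. The groups did not overlap, and the log2 fold was 0.25 ± 0.062 (standard error), with an adjusted p of 0.164 by limma and of 0.0168 by limma-voom. Atp5l (g, ENSMUSG00000038717), printed above with 2 ETS matches, had 18.7, 17 and 18.1 FPKM in SMF, against 15.5, 16.3 and 15.3 FPKM in Control. The groups did not overlap, and the log2 fold was 0.18 ± 0.050 (standard error), with an adjusted p of 0.169 by limma and of 0.0401 by limma-voom. Atp5k (e), printed above with the strict NRF1 form, had 26.8, 18.2 and 23.7 FPKM in SMF, against 17.5, 21.4 and 19.7 FPKM in Control. SMF 2 lay inside the Control range, and with a standard error of 0.128 the log2 fold of 0.21 had an adjusted p of 0.418 by limma.

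Of the factors around ATP synthase, Atpaf1 and Atpaf2, chaperones of the beta and alpha subunits, had log2 folds of 0.073 and 0.13 and adjusted p-values by limma of 0.749 and 0.246. Atpif1, the inhibitor that stops ATP synthase from running backwards, had 84.4, 75.1 and 82.0 FPKM in SMF, against 71.4, 76.9 and 73.4 FPKM in Control. SMF 2 lay inside the Control range, and the log2 fold was 0.12 ± 0.051 (standard error) with an unadjusted p of 0.0444 and an adjusted p of 0.267 by limma. Of the exon bases of Atpif1, 33.7% overlap Gm12999 on the opposite strand, which had 7.18, 9.78 and 5.62 FPKM in SMF against 3.60, 0.680 and 1.69 FPKM in Control. Gm12999 was higher in SMF by limma-voom, with an adjusted p of 0.00572 beside 0.147 by limma, from 6 to 82 reads, and its part in the value of Atpif1 was not tested.

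By role, 25 of 28 subunits of the complexes and 8 of 10 tested assembly factors had a log2 fold above 0, with medians of 0.082 for subunits and 0.071 for assembly factors. Of these, 13 subunits and 4 assembly factors had an unadjusted p under 0.05 by limma. Every SMF library lay above every Control library in 20 of the 40 members, beside 11% of all genes. In 14 of these 20 members SMF 2 was the lowest SMF library, and in 13 of them Control 3 was the highest Control library.

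The same pair of libraries stood out when the members of a complex were averaged. The score of a library was the mean over tested members of log2(FPKM + 1) minus the mean of the gene. For complex III with cytochrome c it was 0.067, 0.012 and 0.076 in SMF 1, 2 and 3, against -0.077, -0.0021 and -0.076 in Control 2, 3 and 4. For ATP synthase it was 0.136, 0.011 and 0.053 in SMF, against -0.092, -0.019 and -0.089 in Control. For complex II it was 0.032, 0.037 and 0.014 in SMF, against -0.039, -0.0091 and -0.036 in Control. SMF 2 was the lowest SMF library and Control 3 the highest Control library for complex III and ATP synthase, whereas for complex II SMF 3 was the lowest SMF library. Summed over subunits, complex III with 9 genes held 987, 914 and 979 FPKM in SMF, against 832, 892 and 843 FPKM in Control. The sum over 15 ATP synthase subunit genes was 1756, 1634 and 1694 FPKM in SMF, against 1571, 1643 and 1578 FPKM in Control. Over 4 complex II subunit genes the sum was 290.7, 293.6 and 288.6 FPKM in SMF, against 277.0, 289.8 and 286.2 FPKM in Control. The sums of ATP synthase overlapped between the groups through SMF 2 and Control 3. Those of complex II overlapped through SMF 3 and Control 3, and those of complex III did not overlap.

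**Figure D4:**
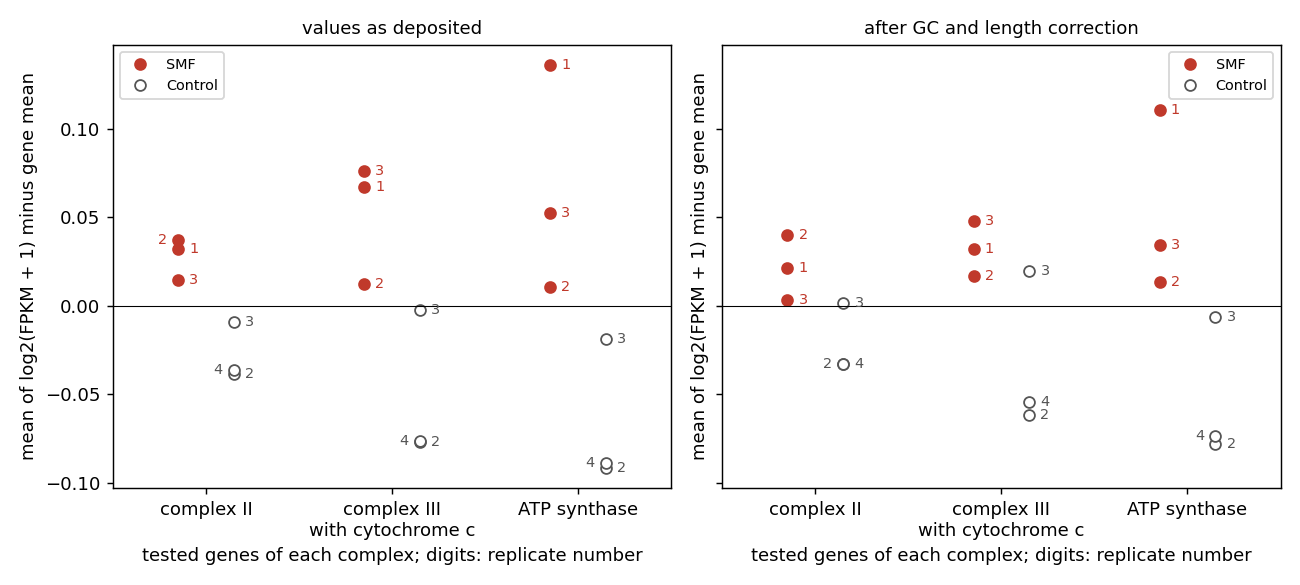
Mean over the tested members of each complex of log2(FPKM + 1) minus the gene mean, per library, with filled points for SMF, open points for Control and digits for replicate numbers, as deposited (left) and after GC content and length correction (right). SMF 2 and Control 3 lie nearest each other for complex III and ATP synthase, and after correction SMF 2 of complex III (0.017) lies inside the Control range.

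Gene length and GC content moved with the fold across all genes. From the lowest to the highest decile of summed exon length, the median log2 fold over all genes ran from 0.085 to -0.082. Members were short, with a median of 2183 bases beside 4198.5 bases over all genes, and 25 of the 40 lay in the 3 shortest deciles. Across the 40 members, Spearman's rho of the fold was -0.384 with length and 0.545 with GC content, beside -0.362 and 0.492 across 11055 genes, all from the same libraries, so genes are not independent points. Of the 40 members, 31 had a fold above the median of their own length decile.

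A correction within each library for the trend in GC content and length lowered the median log2 fold of members to 0.052, with 32 of 40 above 0, beside a median of -0.0052 and 47.6% over all genes. The median was 0.046 for complex III with cytochrome c and 0.070 for ATP synthase, and 4 of 7 complex II members stayed above 0. The members divided under it. By limma, the log2 fold of short, GC-rich Cyc1 became 0.05, that of Uqcr11 0.17, that of Uqcr10 0.15 and that of Atp5d 0.15. None of these genes passed limma-voom on corrected values (adjusted p of 0.722, 0.173, 0.232 and 0.121, in that order). Corrected folds by limma were 0.20 for Uqcrq, 0.24 for Atp5j2, 0.23 for Atp5g1 and 0.28 for Atp5l. These genes passed limma-voom on corrected values, with adjusted p-values of 0.0358, 0.0267, 0.0409 and 0.00894. There, 0.702% of all genes were called higher and 0.405% lower. That fit was chosen after the data were seen and was not run with single libraries left out. By limma on the corrected values the adjusted p was 0.274, 0.233, 0.274 and 0.233, in the same order. Atp5l, at 6443 bases and 39.8% GC, and Atp5g1, at 4912 bases, are longer than most members, and their folds were larger after correction than before. These lengths sum all annotated exons, and GC content is that of the longest annotated transcript, so the mRNA present may be shorter and differ in GC. How far the corrected values of Atp5l and Atp5g1 rest on this was not tested. Atp5e kept a corrected log2 fold of 0.33 by limma, with an adjusted p of 0.233. By limma-voom on corrected values its log2 fold was 0.365, with an adjusted p of 0.102. The part of length and GC content in each fold was otherwise not tested.

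**Figure D5:**
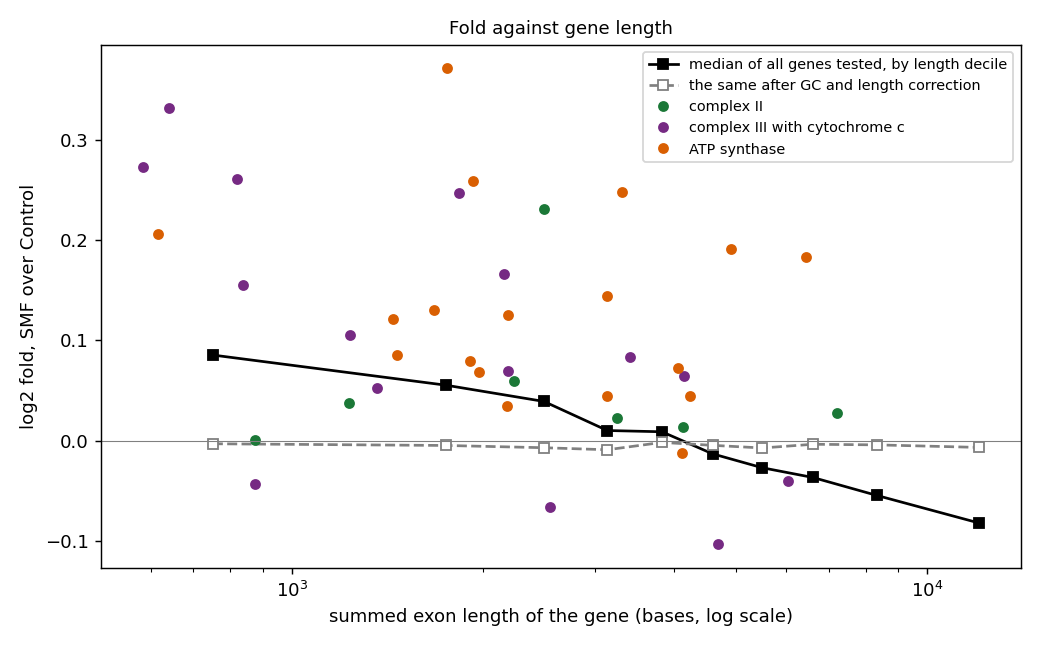
log2 fold (SMF over Control) against summed exon length (bases, log scale), with squares for the median of all genes by length decile, as deposited and after GC content and length correction, and coloured points for the members. The decile medians run from 0.085 to -0.082 as deposited and stay near 0 after correction, and 31 of 40 members lie above the median of their own decile.

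The folds were set beside the promoter matches. The median log2 fold was 0.074 over the 12 members with the NRF1 consensus and 0.12 over the 22 tested members without them. It was 0.12 over the 12 members with the ETS letters and 0.076 over the 22 without them. Both ranges overlapped widely, and no test was made.

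Genes that work beside these complexes were read from the same fits. Of 6 tested genes for electron entry to ubiquinone by other routes, 5 had a log2 fold above 0, with a median of 0.048. Etfa, of the electron transfer flavoprotein, averaged 66.9 ± 2.25 FPKM in SMF and 66.0 ± 1.57 FPKM in Control (SD, n = 3 each). Gpd2, mitochondrial glycerol-3-phosphate dehydrogenase, averaged 24.0 ± 1.42 FPKM in SMF and 26.5 ± 0.659 FPKM in Control (SD, n = 3 each), with every SMF library below every Control library and an adjusted p of 0.218 by limma. Of 12 tested genes for ubiquinone synthesis, 7 were above 0, with a median of 0.035. Coq2 averaged 21.6 ± 1.55 FPKM in SMF and 20.5 ± 0.597 FPKM in Control (SD, n = 3 each), and Coq9 17.4 ± 1.96 FPKM in SMF and 16.2 ± 0.170 FPKM in Control, both with overlap. Coq10b, chosen after its values were seen, averaged 5.40 ± 0.326 FPKM in SMF and 6.16 ± 0.265 FPKM in Control (SD, n = 3 each), with every SMF library below every Control library, an unadjusted p of 0.0298 and an adjusted p of 0.238 by limma.

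Of 12 genes for cristae organisation and cardiolipin, 8 were above 0, with a median of 0.025. Mic13, a small MICOS subunit, averaged 44.3 ± 2.73 FPKM in SMF and 40.2 ± 1.45 FPKM in Control (SD, n = 3 each), with an adjusted p of 0.240 by limma, and Chchd3 averaged 35.0 ± 1.02 FPKM in SMF and 35.1 ± 1.25 FPKM in Control. Also chosen after their values were seen, Opa1, the fusion protein of the inner membrane, averaged 9.33 ± 0.912 FPKM in SMF and 10.5 ± 0.314 FPKM in Control with overlap, and Immt, the core MICOS protein, 24.0 ± 0.409 FPKM in SMF and 25.0 ± 0.564 FPKM in Control without overlap. The adjusted p-values by limma-voom were 0.128 for Opa1 and 0.417 for Immt. Of 10 further factors of the complexes, 7 were above 0, with a median of 0.035, and Usmg5, a small ATP synthase subunit, averaged 28.4 ± 2.34 FPKM in SMF and 25.6 ± 1.17 FPKM in Control (SD, n = 3 each), while Stmp1 averaged 30.4 ± 2.51 FPKM in SMF and 30.0 ± 1.91 FPKM in Control. Hccs, which attaches heme to the c-type cytochromes and was likewise chosen after its values were seen, averaged 3.84 ± 0.312 FPKM in SMF and 4.33 ± 0.366 FPKM in Control (SD, n = 3 each), with every SMF library below every Control library and an adjusted p of 0.382 by limma. Of 3 tested carriers that supply ATP synthase with phosphate and ADP, 1 was above 0, and the abundant Slc25a5 averaged 588.0 ± 1.10 FPKM in SMF and 584 ± 6.41 FPKM in Control (SD, n = 3 each), with Slc25a4 at 272 ± 6.23 FPKM in SMF and 273 ± 5.00 FPKM in Control. Neither limma nor limma-voom called any gene of these lists. The mitochondrially encoded partner mt-Cytb had 3616, 3912 and 4014 FPKM in SMF, against 3892, 3668 and 4004 FPKM in Control, with overlapping groups and a log2 fold of -0.0031.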

How the data were processed

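RNA of 6 AML12 libraries was measured by poly(A) sequencing, and group and replicate number came from the sample titles. The authors deposited FPKM values, 1 file per library, for 23886 gene identifiers. The submitters' processing notes name build GRCm39, Bowtie2 2.2.3 and HISAT2 2.1.0 and give neither their roles nor, per the labels, the counting method and annotation. A GENCODE M21 table (GRCm38) named 23521 identifiers and gave exon lengths and GC content.

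Whole reads were recovered from the deposited FPKM. All 22004 genes above 0 came out whole within 0.02 reads, 96.9% of them with the M21 length and 681 with a searched length. Replicates of a group differed beyond sampling noise (chi-square per gene of 3.18 to 5.77). Intervals between replicates are SD, and precision depends on this spread between libraries as well as on reads per gene.

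Genes with at least 1 FPKM in 3 libraries (11114) were tested on log2(FPKM + 1) with limma (version 3.58.1, R 4.3.3), allowing the variance to follow the mean, two-sided, adjusted by Benjamini-Hochberg over all of them at 0.05. A fold on this scale understates the change of low genes. limma-voom on the recovered reads was a listed alternative, and limma-voom with GC content and length correction (loess, span 0.3) and limma-voom without each library were chosen after seeing the data. Scripts were tested on simulated data. Members, lists, tests and promoter windows were chosen with earlier results of these data known. The rule named in each complex the 4 members with the smallest p, the 2 with the highest FPKM, the 2 with the lowest fold and 13 fixed genes, and further members are given beyond it. Lists have counts and medians only, with no test. Promoter sequences are from RefSeq (GRCm38.p6), and figures were drawn with matplotlib 3.10.9.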

Additional observations from a re-analysis of the deposited data

How the results depend on the processing

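No member crossed the adjusted threshold by limma under any pseudocount, filter, scaling, replicate block, correction or left-out library that was run, and reads were fewest for Lyrm7, Atp5o, Atp5k, Atpaf1 and Atp5e. Across all genes the calls depended on the setting, and the cause was not tested. A filter at 5 FPKM gave 8 genes (6 higher, 2 lower). limma-voom gave 510 (242 higher, 268 lower), with 4 members called in complex III with cytochrome c and 4 in ATP synthase, and limma-voom with GC content and length correction gave 123 (78 higher, 45 lower), with 1 and 3 members called. Leaving out single libraries, limma gave 0 to 3 genes (0 to 2 higher, 0 to 1 lower) and 1230 to 2607 at an unadjusted p under 0.05, against 1998 with all libraries. limma-voom then gave 8 to 1465 (4 to 601 higher, 4 to 864 lower), 1576 to 3074 at an unadjusted p under 0.05, 0 to 5 members called in complex III and 0 to 8 in ATP synthase.

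Replicate numbers 2 and 3 occur in both groups, but no label pairs them, and the correlation of their deviations was 0.0585 and 0.046. With a replicate block limma called 19 genes (13 higher, 6 lower), 0 of them members, and 1018 at an unadjusted p under 0.05. With the block and GC content and length correction it called 4 (4 higher, 0 lower) and 772, with medians of 0.0257 in complex III and 0.0410 in ATP synthase.

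Complex II had 3 members above 0 and a median of -0.0036 on TPM, 3 and -0.0072 after quantile normalization, and 4 above 0 with GC content and length correction by limma and by limma-voom. Its median ran from 0.021 to 0.046 when single libraries were left out. The median of complex III was 0.035 by limma-voom with correction. By reads in place of FPKM, the share of Atp5g1 differed by 1.18 percentage points, and the shares of Atp5g2 overlapped.

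Small log2 folds changed sign. On TPM they were -0.020 for Sdha, -0.011 for Sdhc, -0.0036 for Sdhaf2 and -0.033 for Sdhaf4. After quantile normalization they were -0.028 for Sdha, -0.021 for Sdhc, -0.0082 for Sdhd, -0.0072 for Sdhaf4, -0.0023 for Atp5a1, -0.0074 for Atp5b and -0.023 for Atp5g3. With the block they were -0.032 for Sdhaf4, -0.0081 for Cycs, 0.00016 for Atp5f1 and -0.024 for Atp5g3. With GC content and length correction they were -0.0019 for Sdhb, -0.017 for Sdhd, -0.041 for Sdhaf4, 0.029 for Uqcc1, -0.0085 for Atp5a1, 0.086 for Atp5f1 and -0.014 for Atp5g2. With both they were -0.070 for Sdhaf4, -0.026 for Uqcc2, -0.011 for Atp5a1, 0.046 for Atp5f1, -0.0014 for Atp5o, -0.0069 for Atp5g2 and -0.046 for Atp5g3. By limma-voom with correction they were -0.0063 for Sdhb, -0.026 for Sdhd, -0.050 for Sdhaf4, 0.032 for Uqcc1, -0.014 for Atp5a1, 0.10 for Atp5f1 and -0.026 for Atp5g2. With single libraries left out they ran from -0.038 to 0.042 for Sdhaf4, from -0.036 to 0.012 for Atp5f1, from -0.015 to 0.068 for Atp5g3, from -0.012 to 0.046 for Sdhc, from -0.0093 to 0.19 for Atpaf1 and from -0.0030 to 0.082 for Sdhaf2.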

Other observations

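Of the mitochondrially encoded ATP synthase genes, mt-Atp6 had 2.65, 1.27 and 1.47 FPKM in SMF, against 1.06, 2.1 and 0.862 FPKM in Control, from 10 to 28 reads, and the groups overlapped. These values are far below those of mt-Cytb. The counting method and its treatment of reads shared between genes are not stated, so the level of mt-Atp6 is uncertain and may be understated. Atp5mpl, a small ATP synthase subunit outside the members, had 40.9, 41.8 and 41.4 FPKM in SMF, against 37.3, 40.4 and 39.5 FPKM in Control. Every SMF library lay above every Control library, and the adjusted p was 0.333 by limma.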
